A study of Mus musculus with 4 samples.

Results

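Protein kinase C and its neuronal substrates were described by 13 probe sets of 8 genes on an oligonucleotide array of 12488 probe sets. The members were all probe sets whose single annotated gene symbol was Prkca, Prkcb, Prkcd, Prkce, Prkcz, Gap43, Nrgn or Marcks. Of the 13 probe sets, 10 belonged to the 5 kinase genes and the others were 1 each for Gap43, Nrgn and Marcks. RNA came from the hippocampal dentate gyrus of young male C57BL/6J mice that were handled by the experimenter and otherwise untreated. There were 4 samples, 1 each at 1, 2, 4 and 6 h, where the hour counts from the last shock given to separate experimental mice. Those shocked mice were not analysed here, and the number of mice behind each sample is not given in the sources used here. All values are array intensities on a linear scale. Each hour rests on 1 array, so single readings carry no error of their own.

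Protein kinase C (PKC) enzymes carry the signal of receptors that activate phospholipase C, which splits a membrane lipid into diacylglycerol and inositol trisphosphate. Conventional forms such as alpha (Prkca) and beta (Prkcb) need both calcium and diacylglycerol, a further class with delta (Prkcd) and epsilon (Prkce) needs diacylglycerol alone, and the atypical zeta form (Prkcz) responds to neither. Neurogranin (Nrgn), found in dendrites and spines, and GAP-43 (Gap43), found in axons and growth cones, both hold calmodulin until PKC phosphorylates them. MARCKS (Marcks) binds membrane lipids and actin and leaves the membrane when PKC phosphorylates it. In the brain, Prkcz also gives rise, from an internal start, to a shorter kinase without the regulatory part.

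The sequence before the annotated start of transcription was taken from RefSeq (build GRCm38.p6), which gave at least 1 window for 5 of the 8 genes (Prkca, Prkcb, Prkcd, Prkcz and Nrgn). Prkce, Gap43 and Marcks had no entry. Shown are Nrgn, the member with the widest span among the bright probe sets, Prkcb, which has the brightest member probe set, and the first and second of 3 annotated starts of Prkcz, whose probe sets ran different courses. Each sequence runs from 250 bases before the start to 10 bases after it, and capitals mark GC boxes (GGGCGG on either strand) and cyclic AMP response element (CRE) letters (TGACG or TGACGTCA on either strand, where the longer holds the shorter).
Nrgn, chr9:37552736-37552995, minus strand: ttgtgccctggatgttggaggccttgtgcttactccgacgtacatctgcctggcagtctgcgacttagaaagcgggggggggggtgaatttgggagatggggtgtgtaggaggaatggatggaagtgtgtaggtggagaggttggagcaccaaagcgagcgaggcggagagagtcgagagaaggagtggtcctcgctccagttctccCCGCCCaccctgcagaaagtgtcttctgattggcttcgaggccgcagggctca
Prkcb, chr7:122288875-122289134, plus strand: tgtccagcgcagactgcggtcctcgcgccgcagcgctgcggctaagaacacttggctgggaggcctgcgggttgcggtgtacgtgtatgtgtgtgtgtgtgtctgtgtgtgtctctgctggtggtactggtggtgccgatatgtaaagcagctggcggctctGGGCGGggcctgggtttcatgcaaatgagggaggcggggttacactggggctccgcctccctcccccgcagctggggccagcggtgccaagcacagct
Prkcz first start, chr4:155361419-155361678, minus strand: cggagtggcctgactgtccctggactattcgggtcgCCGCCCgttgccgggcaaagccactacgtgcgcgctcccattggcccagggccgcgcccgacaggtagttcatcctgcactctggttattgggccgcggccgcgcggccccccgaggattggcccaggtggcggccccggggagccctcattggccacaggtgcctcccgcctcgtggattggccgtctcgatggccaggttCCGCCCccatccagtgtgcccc
Prkcz second start, chr4:155345780-155346039, minus strand: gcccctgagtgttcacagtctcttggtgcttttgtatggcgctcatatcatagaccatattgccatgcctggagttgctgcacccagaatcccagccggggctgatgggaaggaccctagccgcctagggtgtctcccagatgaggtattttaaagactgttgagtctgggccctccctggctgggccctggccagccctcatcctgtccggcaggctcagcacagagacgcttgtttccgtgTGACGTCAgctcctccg

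The motif search covered windows of 300 bases, up to 50 bases past the start. The Nrgn window held 1 GC box, 1 CCAAT box (CCAAT) and no TATA box (TATAAA), and its bases were 59.3% G or C. The Prkcb window held 1 GC box. The first Prkcz window held 3 GC boxes, 5 CCAAT boxes and no CRE letters, whereas the second held no GC box and 1 full CRE that overlaps the start. Over all 32851 RefSeq windows of this length, 35.7% held a GC box, 37.4% a CCAAT box, 13.6% a TATA box, 20.8% the short CRE letters and 1.79% the full CRE. A match describes letters in these windows and does not show that a factor binds there.

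All 4 arrays had the same trimmed mean intensity (500.3), while the median of all probe sets was 185.6, 187.3, 212.75 and 184.75 at 1, 2, 4 and 6 h. The granule cell transcription factor Prox1 read 184.2, 153.5, 182.0 and 249.1 and the calcium-binding protein gene Calb1 read 2542, 3026, 2506 and 2453. Array controls at the ends of 2 housekeeping transcripts differed between arrays. The 5′ probe set of Gapdh read 10481, 4839, 6898 and 9549, and its 3′ over 5′ ratio was 3.75, 6.33, 5.36 and 3.89. The 3′ over 5′ ratio of Actb was 3.03, 2.48, 2.59 and 2.54, highest at 1 h. In bulk samples such as these, fewer cells of a type and less RNA per cell cannot be told apart.

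Neurogranin had the widest span of the bright members, with high readings at 1 and 6 h and low readings at 2 and 4 h. The intensities of Nrgn were 7614, 3093, 2518 and 6526, a 3.02-fold span from 4 h to 1 h. Relative to the mean of the other 3 hours on the log2 scale, the 1 h sample stood at 1.04, the 2 h sample at −0.69, the 4 h sample at −1.09 and the 6 h sample at 0.74. No reading lay between 3093 and 6526, so the samples parted into a high and a low pair. The mean over the 4 samples was 4937 ± 2513 (SD, n = 4). The 500 tested probe sets nearest to it in mean intensity had a median span of 1.32-fold. Of the 266 tested probe sets at least as bright, 3 spanned as far, Nrgn included. Leaving out any 1 of the 4 samples left a span of 2.46-fold to 3.02-fold. The 5′ probe set of the Gapdh control, given above, was also higher at 1 and 6 h than at 2 and 4 h. Its part in the Nrgn readings was not tested.

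GAP-43 was also higher at 1 and 6 h than at 2 and 4 h, over a narrower range, but its highest and lowest hours were not those of Nrgn. Gap43 read 1847, 1187, 1288 and 2079, highest at 6 h and lowest at 2 h, a 1.75-fold span (mean 1600.1 ± 431, SD, n = 4). As for Nrgn, both the 1 h and the 6 h reading lay above both of the others. With each array scaled to a common median, the lowest reading was at 4 h instead, and the span was 1.86-fold. The ending _s_at of this probe set's name is used on such arrays where the probes can match more than 1 transcript.

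MARCKS was lower on 1 array. Marcks read 1918, 1762, 1186 and 1778, and the 4 h sample stood 0.62 log2 units below the mean of the others (−0.62). The other 3 readings lay within 1.09-fold of each other. The 1.62-fold span therefore rests on the 4 h sample.

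**Figure D1:**
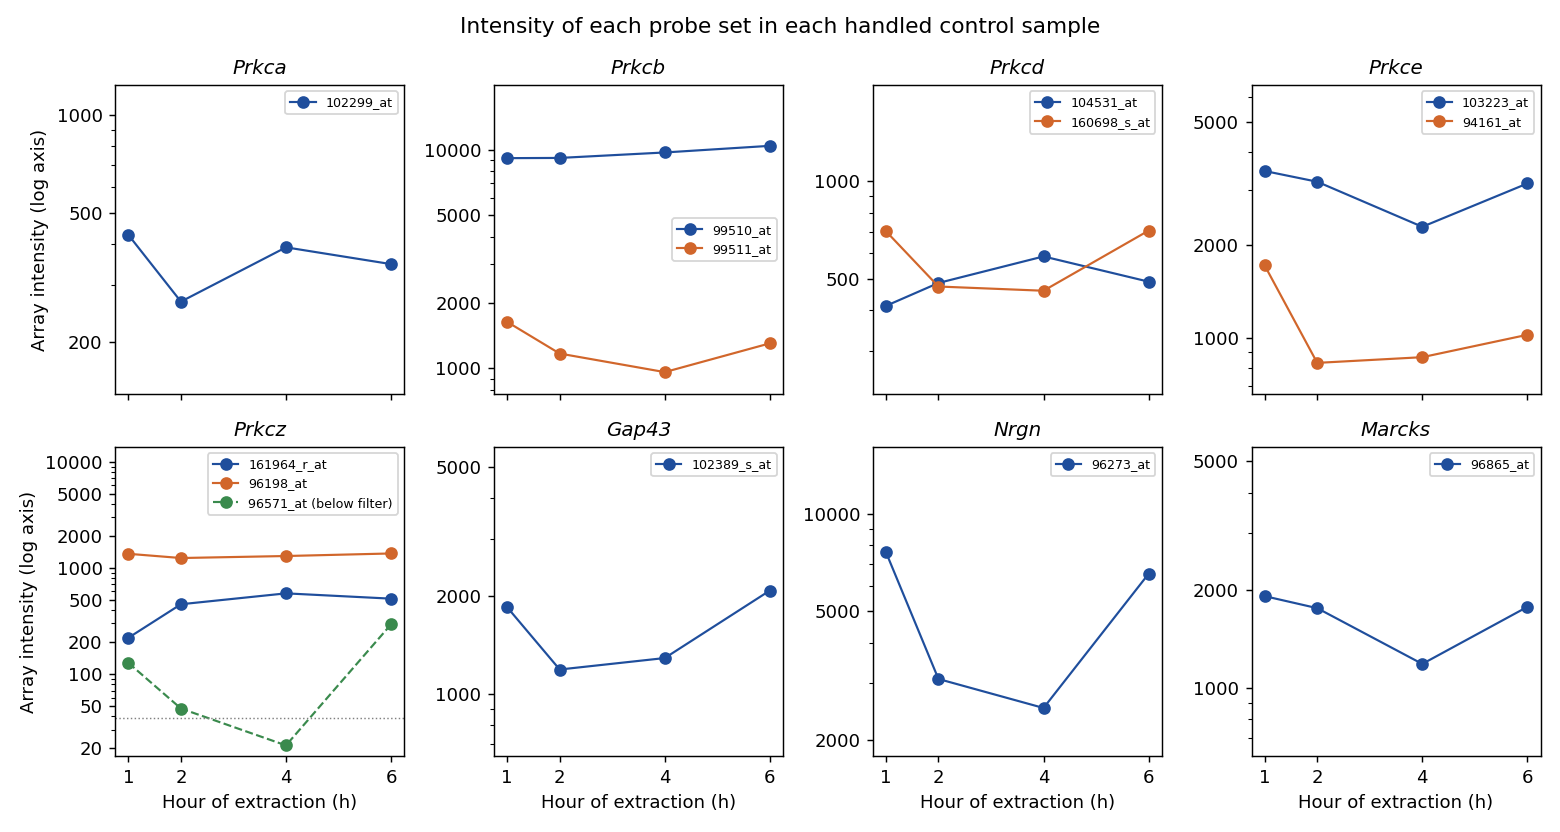
Array intensity (log axis) against the hour of extraction (h) for each of the 13 probe sets, 1 panel per gene and 1 point per sample, with the dotted line at the floor of 38.3. Nrgn falls from 7614 at 1 h to 2518 at 4 h and reads 6526 at 6 h, while probe set 99510_at of Prkcb stays between 9132.5 and 10394.

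Of the conventional kinases, Prkcb, whose alternative splicing gives the beta I and beta II forms, had a steady and a less steady probe set. Probe set 99510_at read 9132.5, 9153, 9694 and 10394, slightly higher at each hour, over a 1.14-fold span (mean 9594 ± 594, SD, n = 4). Only 4.2% of the tested probe sets had a narrower span. Probe set 99511_at of the same gene read 1632, 1170, 963 and 1303, highest at 1 h and lowest at 4 h, a 1.7-fold span. The 2 probe sets thus had their lowest readings at opposite ends of the first 4 hours, and with arrays scaled to a common median both were lowest at 4 h. Prkca, the alpha form, had 1 probe set, which read 427, 266, 391 and 347. Its lowest reading was at 2 h, 1.61-fold below that at 1 h, and without the 2 h sample the span was 1.23-fold.

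The kinases that need diacylglycerol but not calcium each had a pair of probe sets that parted. For Prkcd, the delta form, probe set 104531_at read 413, 486, 587 and 491 and probe set 160698_s_at read 702, 474, 460.1 and 705. The first was highest at 4 h, where the second was lowest. The second read nearly the same at 1 and 6 h, and with quantile normalisation its highest reading moved to 1 h. The spans were 1.42-fold and 1.53-fold. For Prkce, the epsilon form, probe set 103223_at read 3466, 3199.8, 2288 and 3158.5 and was low at 4 h alone, with a 1.51-fold span that was 1.1-fold without the 4 h sample. Probe set 94161_at of Prkce read 1716, 831, 867 and 1024.5 and was high at 1 h alone. Its 2.06-fold span was 1.23-fold without the 1 h sample.

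The atypical kinase Prkcz had 3 probe sets with 3 courses. Probe set 96198_at read 1357, 1238, 1293 and 1367, within a 1.1-fold span, narrower than in all but 2.34% of the tested probe sets. Probe set 161964_r_at read 219.6, 454, 575 and 513. It was low at 1 h alone, 2.62-fold under the 4 h reading, and without the 1 h sample the span was 1.27-fold. Probe set 96571_at read 127.5, 47.4, 21.3 and 293.9, and its 4 h value lay under the floor of 38.3, the 20th percentile of all values, to which lower values were set. From 4 h to 6 h it differed by at least 7.67-fold. Its mean was below the filter described next, so it entered no test.

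The question put to these controls was whether any member changed steadily with the hour. A straight line of log2 intensity on the hour was fitted with limma to the 6500 probe sets of 1 gene symbol whose mean log2 intensity was at or above the 40th percentile (6.91, an intensity of about 120). Of the members, 12 of 13 were among them. With limma, 0 of the 12 had an adjusted p under 0.05, as had 0 of all 6500 (0% called), with a smallest adjusted p of 0.496 over all and 0.99996 among the members. At an unadjusted p under 0.05 there was 1 member, against 136 of all tested probe sets (2.09%). That member was Prkcz 161964_r_at, with a slope of 0.21 ± 0.09 log2 per h (SE, n = 4; limma, unadjusted p = 0.0467, adjusted p = 0.99996). Leaving out the 1, 2, 4 or 6 h sample, its slope was 0.04, 0.26, 0.19 and 0.42 (limma, unadjusted p = 0.723, 0.0148, 0.0986 and 0.0129). These fits had 1 residual degree of freedom, and it was called in none. With all 4 samples, its unadjusted limma p was 0.0532 with arrays scaled to a common median, 0.0555 with quantile normalisation, 0.0856 without the intensity trend and 0.164 without a filter. It was 0.0437 with a floor at the 30th percentile, 0.0474 with an added constant of 16 and 0.0419 with the filter at the 60th percentile. The slope of Nrgn was −0.01 ± 0.12, that of Gap43 0.06 ± 0.07, that of Marcks −0.05 ± 0.07 and that of Prkcb 99510_at 0.04 ± 0.05 log2 per h (SE, n = 4). Of the 12 slopes 6 were positive, against 49.9% of all tested. A course that is high at both ends, such as that of Nrgn, has almost no slope, and a line cannot detect it. Without the 1 h sample the slope of Nrgn was 0.27 (limma adjusted p = 0.181), and without the 6 h sample it was −0.48.

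Without a test, 3 of the 12 tested member probe sets differed over 2-fold across the hours (Nrgn, Prkce 94161_at and Prkcz 161964_r_at), that is 25% against 21.6% of all tested probe sets. Without the 1 h sample 1 did, Nrgn, against 15.7% of all tested. Over 3-fold there was 1 member, Nrgn, against 7.58% of all tested. The median span was 1.61-fold for the members and 1.53-fold for all tested, without matching for brightness. Among the 500 tested probe sets nearest to each member in mean intensity, the median span ran from 1.31-fold (Prkcb 99510_at) to 1.58-fold (Prkca). Prkcb 99510_at, Prkcd 104531_at and Prkcz 96198_at spanned less than the median of their own 500, and the other tested members spanned more. This was not tested. A span over 1.5-fold was found for 9 of 12 members and for 52.9% of all tested.

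**Figure D2:**
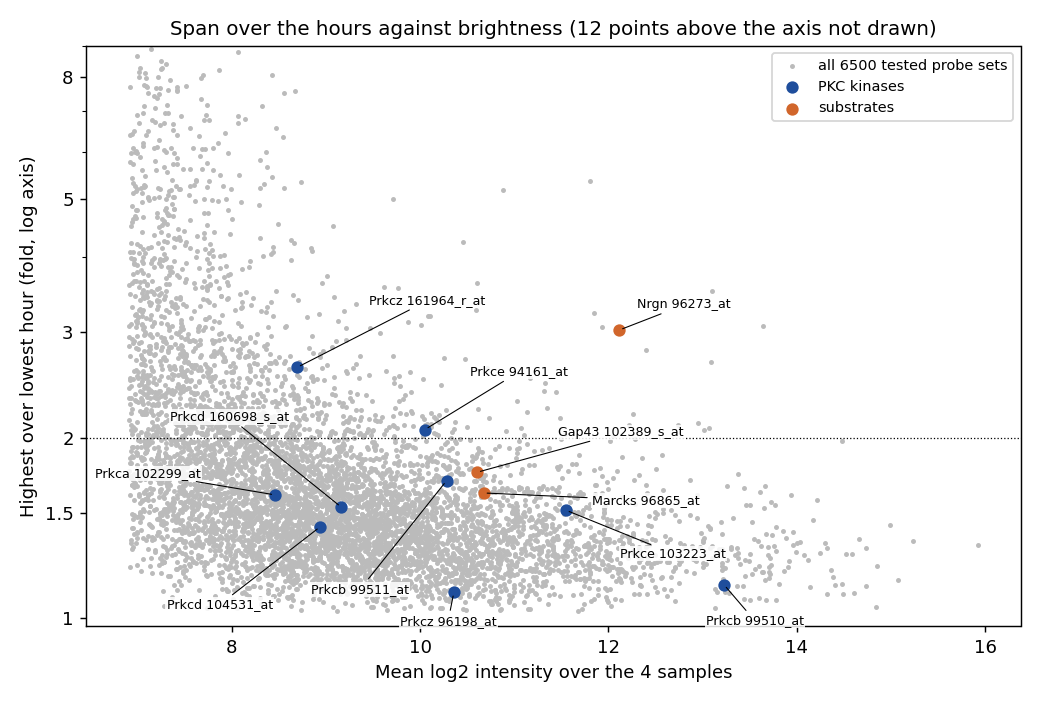
Highest over lowest hour (fold, log axis) against the mean log2 intensity of each tested probe set, with grey points for all 6500 (12 lie above the axis), blue for kinases, orange for substrates and a dotted line at 2-fold. Nrgn, at 3.02-fold, stands above nearly all probe sets of its brightness, while Prkcb 99510_at (1.14-fold) and Prkcz 96198_at (1.1-fold) lie at the lower edge.

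Of the 12 tested member probe sets, 6 were highest at 1 h (23% of all tested), 0 at 2 h (22.4%), 2 at 4 h (32.9%) and 4 at 6 h (21.6%). The lowest reading was at 1 h for 3 (24.1%), at 2 h for 4 (23.7%), at 4 h for 5 (28.4%) and at 6 h for 0 (23.8%). These shares were not tested, since the probe sets share 4 arrays and several share a gene. With arrays scaled to a common median, 9 of the 12 were lowest at 4 h, against 44.1% of all tested, and the median of all tested probe sets at 4 h moved from 0.04 to −0.15 log2 units against the other hours. Under that scaling the highest reading was at 6 h for 5 members (27.2% of all tested), at 1 h for 6 (27.6%) and at 4 h for 1 (18.4%). With quantile normalisation 8 of the 12 were highest at 1 h (23.6% of all tested) and 2 at 6 h (22.2%).

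Likeness of course was measured as the root mean square difference of log2 values after each probe set's mean was removed, over the 4 samples, so that 0 means the same course. Probe sets of the same kinase were mostly no closer than many probe sets of other genes. The 2 Prkcb probe sets differed by 0.30, and 63.2% of the tested probe sets lay closer to 99510_at than 99511_at did, and 34.8% lay closer to 99511_at. For Prkcd the difference was 0.44, and 79.6% lay closer to 104531_at and 63% to 160698_s_at. For Prkce it was 0.34, and 51.6% lay closer to 103223_at but 15% to 94161_at. For Prkcz, 161964_r_at and 96198_at differed by 0.57, and 90.6% lay closer to 96198_at and 43.3% to 161964_r_at. Closer pairs were found between genes, where there are many more pairs to draw from. Marcks and Prkce 103223_at, both low at 4 h, differed by 0.05, and 0.154% of the tested probe sets lay closer to Marcks. Gap43 and Prkcd 160698_s_at, both low at 2 and 4 h, differed by 0.09, with 0.262% closer to Gap43. Prkcb 99510_at and Prkcz 96198_at, both nearly flat, differed by 0.07. Nrgn differed by 0.39 from Gap43 and from Prkcd 160698_s_at, and 2.74% and 2.72% of the tested probe sets lay closer to Nrgn. Seen from the other side, 44.2% lay closer to Gap43 than Nrgn did, and 52.7% lay closer to Prkcd 160698_s_at.

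**Figure D3:**
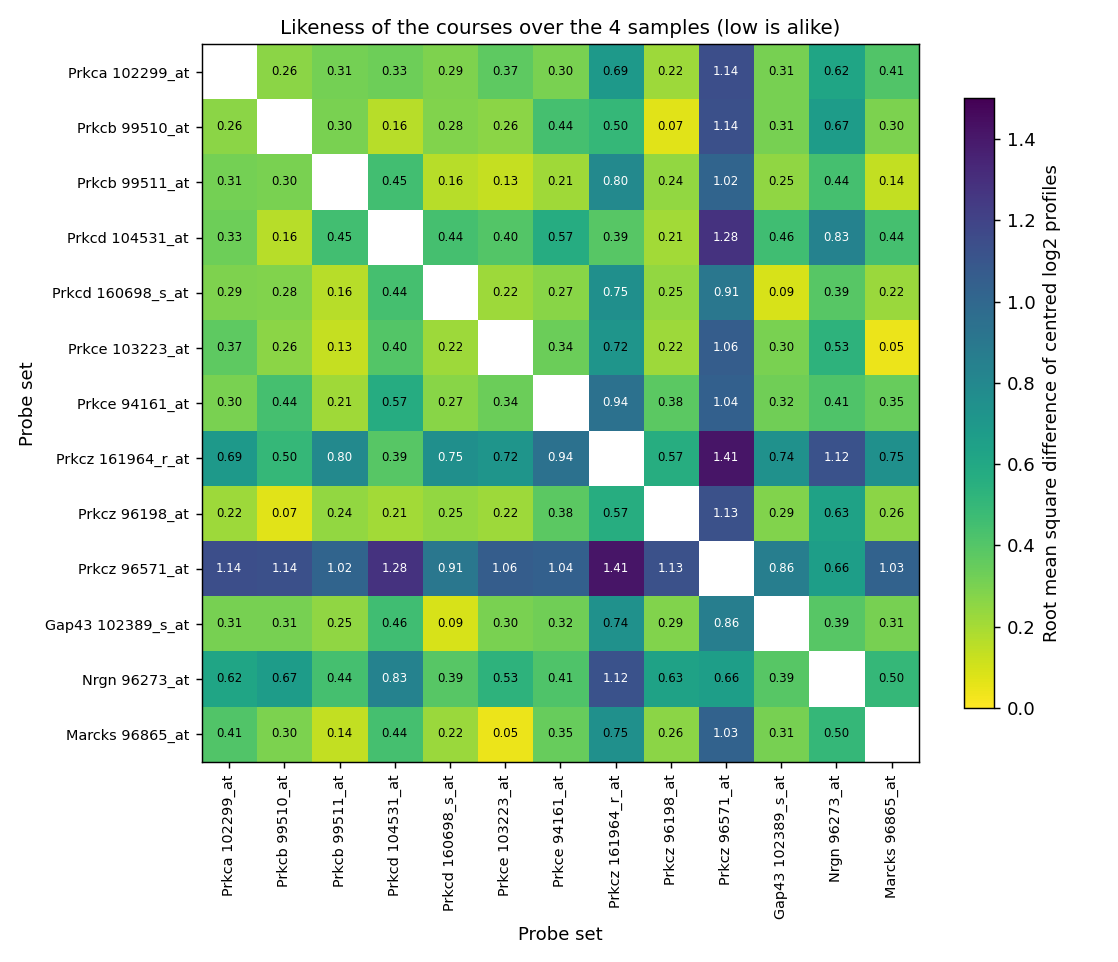
Root mean square difference of centred log2 profiles over the 4 samples (colour and number, no unit but log2) for each pair of the 13 member probe sets. Marcks and Prkce 103223_at (0.05) and Gap43 and Prkcd 160698_s_at (0.09) are closer than any pair of probe sets of 1 kinase, of which the closest is that of Prkcb (0.30). Pairs between genes are far more numerous than pairs within a kinase, so their closest pairs are not a like comparison.

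Across all tested probe sets of other genes, the courses most like that of each member's brightest probe set were named by rank. Nearest to Nrgn was Atp2c1, a calcium and manganese pump of the Golgi, which read 1535, 752, 492 and 1359 (difference 0.12), and then Rufy3, a protein of neuronal polarity and axons, at 3409, 1856, 1357 and 3271 (0.15). These share the high readings at 1 and 6 h and the low ones at 2 and 4 h. Nearest to Gap43 were the fucosyltransferase gene Fut7 (0.02) and Eif2b1, a subunit of a translation initiation factor (0.04). Nearest to Prkcd 160698_s_at were Tmem30a, a subunit of lipid flippases (0.03), and the chaperonin subunit gene Cct6a (0.04). Marcks was matched by Slirp, a mitochondrial RNA-binding protein gene (0.01), and Selenok (0.03), and Prkce 103223_at by the astrocyte gap junction gene Gja1 (0.02) and Arfgef1 (0.02). Nearest to Prkca were Rrp1b (0.03) and Get3 (0.03), to Prkcb 99510_at Pdha1 (0.01) and Ttc7b (0.02), and to Prkcz 96198_at Cox6a1 (0.01) and Igkv7-33 (0.01). With 4 samples, close courses of unrelated genes are common, and the median difference from all tested probe sets ran from 0.24 for Prkcz 96198_at to 0.73 for Nrgn.

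The readings of Nrgn and of Gap43 were set beside the array's own controls. The 5′ Gapdh probe set, read from the start of the transcript, was high at 1 and 6 h and lowest at 2 h. Gap43 was also lowest at 2 h, whereas Nrgn was lowest at 4 h, and the 5′ Gapdh probe set was highest at 1 h, as Nrgn was. The middle Gapdh probe set ran otherwise, at 20271, 15217, 23738 and 19116, highest at 4 h, where Nrgn was lowest. The 3′ Gapdh probe set read 39319, 30618, 36994 and 37124, a narrower range. The 5′ Actb probe set ran the other way at 1 h, with 10582, 16037, 14682 and 15576. The brightest blood gene, Hba-a1 of haemoglobin, also read high at 1 and 6 h, at 4208, 2328, 2552 and 3814. The part of transcript ends or of blood in the readings of Nrgn and Gap43 was not tested.

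**Figure D4:**
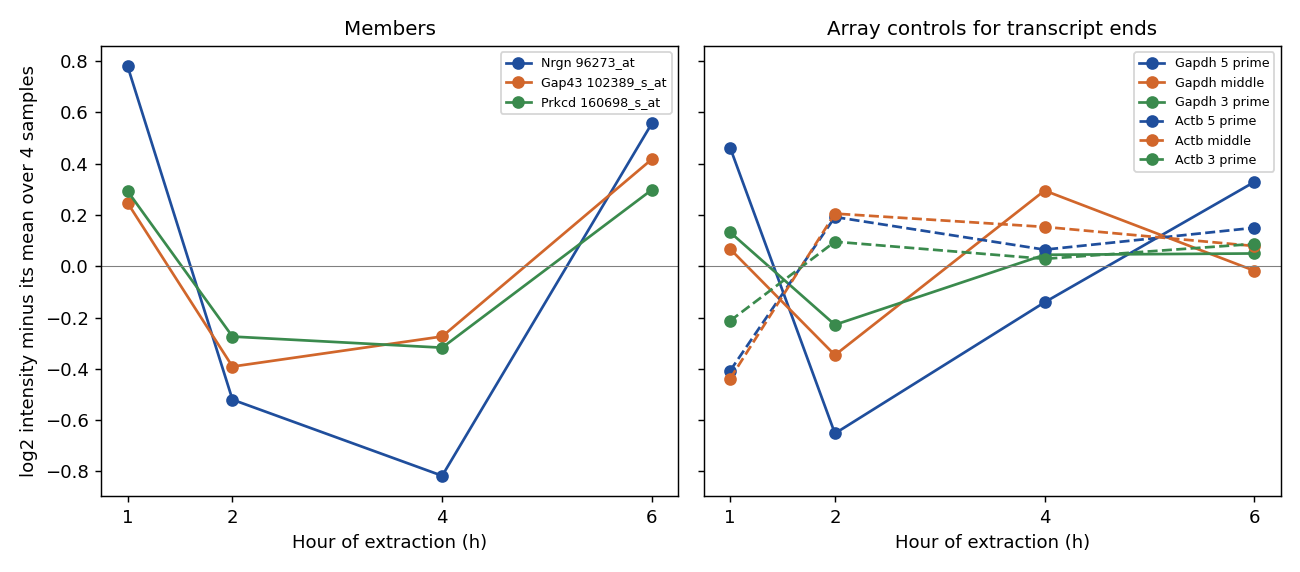
Log2 intensity minus its mean over the 4 samples against the hour of extraction (h), for Nrgn, Gap43 and Prkcd 160698_s_at (left) and the 5′, middle and 3′ control probe sets of Gapdh (solid) and Actb (dashed) (right), 1 point per sample. All 3 members and the 5′ Gapdh control are above their means at 1 and 6 h and below them at 2 and 4 h. The middle Gapdh control is highest at 4 h, and the Actb controls are lowest at 1 h.

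The rest of the pathway was read from 7 lists of 93 genes, of which 56 had a probe set of their own and 39 had 1 or more of the 54 tested probe sets. With limma, 0 of the 54 had an adjusted p under 0.05 and 0 an unadjusted p under 0.05. Of their slopes 24 were up and 30 down, against 49.9% up of all tested. A span over 2-fold was found in 14 (25.9%, against 21.6% of all tested), and the median span was 1.61-fold.

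Upstream of PKC are receptors and the Gq class of G proteins, which turn on phospholipase C. Their genes had 5 tested probe sets with a median span of 2.64-fold, and 4 of the 5 slopes were positive (49.9% of all tested). Mean intensities were 134 for Hrh1, 176 for Gnaq, 206 for the receptor gene Chrm1, and 453 and 1277 for Gna11. The G protein gene Gnaq read 157.4, 46.8, 261 and 240.2, lowest at 2 h. Its relative Gna11 read 325, 477, 191.5 and 817 with probe set 103411_at (4.27-fold), while 102196_at spanned 1.39-fold, and the histamine receptor gene Hrh1 read 143.8, 143.6, 134.8 and 114.4. Of the 5 phospholipase C probe sets, that of Plcd1 read 267, 146, 318 and 356 and that of Plcg1 270.1, 209.1, 332 and 414. These were lowest at 2 h and highest at 6 h. The narrowest probe set was 92466_at of Plcb1, at 1877, 2048, 2296 and 1563 (1.47-fold), while the other two of Plcb1 spanned 1.65-fold and 1.98-fold.

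Genes that handle diacylglycerol and inositol phosphates had 7 tested probe sets with a median span of 1.44-fold. The inositol trisphosphate receptor gene Itpr2 read 377.5, 350.0, 141.9 and 570.3 with probe set 101442_f_at (4.02-fold, against 1.57-fold for 101441_i_at), while Inpp1 read 142.4, 139.9, 232 and 212 with its wider probe set. The steadiest probe set was 97858_at of the inositol phosphatase gene Inpp5a, at 684, 732, 715 and 664 (1.1-fold), while 97859_at of the same gene spanned 1.44-fold. Among the other PKC family kinases, 5 probe sets were tested with a median span of 1.84-fold. The probe sets of Prkd2, a diacylglycerol-responsive kinase related to PKC, parted as those of the members did, with 172, 294, 66.7 and 90.7 for 103408_at and 236, 245, 335 and 326 for 161627_r_at. Prkcq, the theta form, read 238, 224, 294.5 and 116.3.

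Among PKC anchors, inhibitors and co-factors, 13 tested probe sets had a median span of 1.69-fold. Pick1, a scaffold that binds PKC alpha, read 221, 289, 59 and 331 with 161638_f_at and 144.2, 131.0, 233 and 269.6 with 97684_at. Pdpk1, the kinase that primes PKC enzymes by phosphorylating them, read 867, 233, 426.5 and 824 with probe set 102063_at, high at 1 and 6 h, but 2233.5, 2063, 1325 and 1903 with 160578_at, low at 4 h alone. Hint1, which binds PKC, was nearly flat at 6500.1, 6952, 6496 and 6765. The calmodulin gene Calm2, whose protein neurogranin and GAP-43 bind, read 449, 387, 399 and 482 (1.25-fold), and Camk2b, a calmodulin-dependent kinase gene, read 13283, 11472, 11284 and 13783 (1.22-fold). Both had their higher readings at 1 and 6 h, over a range well under that of Nrgn. Calb1 spanned 1.23-fold, and these 3 genes were the tested members of the calmodulin list.

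The probe sets of other PKC substrates and growth-associated genes were most often highest at 1 h. Of 16 tested probe sets, 11 were highest at 1 h (23% of all tested). The lowest reading was at 2 h for 6 (23.7% of all tested), at 6 h for 5 (23.8%) and at 4 h for 4 (28.4%). These counts were not tested, since the probe sets share the same arrays and several share a gene, such as those of Gria2 and Basp1. The AMPA receptor gene Gria2, whose protein PKC phosphorylates, read 1724, 935, 560 and 1247.5 with its widest probe set, 92945_at, a 3.08-fold span. Its brighter probe set 92947_s_at spanned 1.66-fold and its probe set 92946_f_at 2.05-fold, both lowest at 2 h. The vesicle fusion ATPase gene Nsf read 11894, 5771, 7196.5 and 9503. The narrowest was probe set 95669_g_at of the tubulin-binding stathmin gene Stmn2, at 3735.5, 3621, 4044 and 3828 (1.12-fold). Probe set 95670_at of the same gene spanned 1.59-fold. The list's summed intensity was 119219, 91709, 95635 and 104621 at the 4 hours. The median span was 1.48-fold, under the 1.53-fold of all tested.

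**Figure D5:**
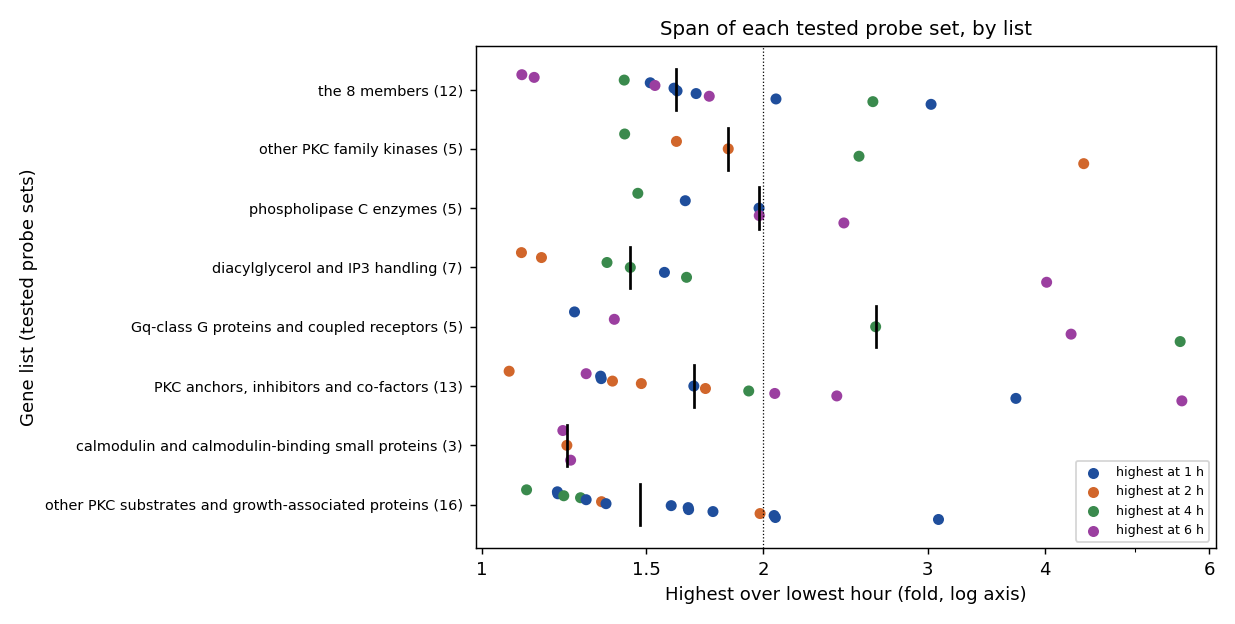
Highest over lowest hour (fold, log axis) of each tested probe set, 1 row per gene list with its number of tested probe sets, points coloured by the hour of the highest reading, black bars at the medians and a dotted line at 2-fold. The members (median 1.61-fold) lie within the range of the other lists, and the calmodulin list is narrowest (1.23-fold) and the Gq list widest (2.64-fold). The lists were not matched for brightness. Of the other substrates, 11 of 16 probe sets are highest at 1 h (23% of all tested).

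Prkcd is a marker of thalamic relay neurons, so markers of the thalamus and habenula were set beside its 2 probe sets. Of 11 listed genes other than Prkcd, 9 were on the array and 6 were past the filter. The summed intensity of the list was 5543, 5962, 5735 and 5677, a narrow range, but most of it came from both Adarb1 probe sets and Calb2. Adarb1 read 1489, 1750, 1336 and 1993, Calb2 1060.4, 1173, 1179 and 793, Lef1 456, 222, 911 and 500.9 and the relay nucleus gene Tcf7l2 412, 622.5, 291 and 127.5. This Tcf7l2 probe set spanned 4.88-fold, with a slope of −0.39 log2 per h (limma, unadjusted p = 0.00287, adjusted p = 0.99996). It was the only 1 of the list's 7 tested probe sets with an unadjusted p under 0.05 (2.09% of all tested). The other Tcf7l2, Adarb1 and Lef1 probe sets read 82 to 117.5, 947 to 1155 and 12.2 to 31.7. Rgs16 read 385 to 492 with one probe set and 24.4 to 176 with the other, and Tac1 read 89.9 to 173.7. Gbx2 and Rora, both defining genes of thalamic development, had readings under the floor, as 2 of 4 for Gbx2 (20.2 to 82.4) and 3 of 4 and 1 of 4 for the Rora probe sets, and Ramp3 read 45.2 to 207.9. Of the 7 tested probe sets of the list, 0 were highest at 1 h (23% of all tested), 2 at 2 h (22.4%), 2 at 4 h (32.9%) and 3 at 6 h (21.6%). The lowest reading was at 4 h for 2, both of Adarb1 (28.4% of all tested). Prkcd 160698_s_at was highest at 6 h and lowest at 4 h. The part of thalamic tissue in the Prkcd readings was not tested.

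The summed intensities of other cell type lists are given as levels, and single members of a list can vary more than its sum. The summed intensity of the CA field list was 19813, 18999, 20844 and 19082, that of interneuron markers 15921, 16826, 13993 and 13581, that of astrocyte markers 48120, 47013, 48462 and 51579 and that of microglia markers 8435, 9143, 8142 and 9216. Of each list the brightest were Cck (11043, 10035, 9965 and 11298) and Rgs14 (3547, 3184, 4038 and 3159), Gad1 (3985, 4036, 3712.5 and 3492) and Sst (3603.5, 4223, 3194 and 3272), Apoe (23151, 22498, 22225 and 24443) and Aldoc (9752, 11094.5, 14130.3 and 12712), and Ctss (2197, 2659.9, 2317 and 2858.5) and C1qc (1284, 1409, 1896 and 1528.5). Summed oligodendrocyte markers read 13596, 13646, 13766 and 14738 (Mobp 5064, 5546, 6074 and 6271; Mbp 4269, 3875.5, 3489.8 and 4524). Granule cell markers summed to 6009.9, 7487, 6527.5 and 6757 (beside Calb1, Dsp read 947.5, 1362, 1089 and 1283), highest at 2 h. Of their 7 tested probe sets, 3 were highest at 2 h (22.4% of all tested), 1 at 4 h (32.9%) and 3 at 6 h (21.6%). Prox1, given above, was lowest at 2 h. Markers of immature neurons, cells in which Gap43 and Marcks are typically abundant, summed to 21848, 22420, 21576 and 20408 (Tubb3 8076, 7034.5, 8770.1 and 7344; Ncam1 3661.5, 4558.5, 3682 and 3778).

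Lists of small structures near the dentate gyrus differed more. Choroid plexus markers summed to 2219, 5012, 5888 and 3176 (Igf2 1849, 4402, 2955 and 2521; Ttr 81.3, 234, 2408 and 191), lowest at 1 h, where Nrgn was highest. Blood cell markers summed to 4470.1, 2508.5, 2804 and 3944, mostly Hba-a1, while Alas2 read 167.8, 43.2, 166.4 and 39.3 and 2 of the 6 probe sets were under the floor on every array. Vascular markers summed to 3142, 3088.5, 3246 and 2397 (Eng 974, 849.6, 1022 and 827; Cldn5 705, 657.5, 516 and 379.8). The part of any of these in the members' readings was not tested.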

How the data were processed

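The values the authors deposited are linear array intensities, 1 for each probe set in each sample; how the authors made these values, including software and scaling, is not given in the sources used here. Equal trimmed means and unequal quantiles show a common scaling of whole arrays, so the values were used as deposited. Control probe sets (66), those without a gene symbol (1193) and those with several symbols (396) were left out of the fit, which left 10833 probe sets of 8251 genes. By gene identifier, 10817 of them and all 8 member genes matched RefSeq (GRCm38.p6). Values under the 20th percentile (38.3) were raised to that value before taking log2. Probe sets with a mean log2 at or above the 40th percentile were tested with limma 3.58.1 in R 4.3.3 (lmFit on the hour, eBayes with an intensity trend, 2 residual and 9.78 prior degrees of freedom, Benjamini-Hochberg over all 6500 tested, called at 0.05). The fit was also run on simulated data with independent noise for each probe set, unlike these shared arrays, and nothing here rests on that run. These p values measure scatter about a line through 4 arrays, in which hour and array cannot be told apart; the number of arrays limits the precision. A span is the highest over the lowest floored value. Named genes are every member probe set, the 2 nearest courses to each member's brightest probe set, the 2 widest and the narrowest tested probe set of each pathway list, every calmodulin gene, the 2 brightest probe sets of each marker list and all thalamic markers; Prox1 was added after its values were seen. The members and lists were chosen with earlier results of these data known. The alternatives tried were another floor, an added constant of 16, array median scaling, quantile normalisation, other filters, 1 probe set per gene, no intensity trend, and leaving out each sample.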

Additional observations from a re-analysis of the deposited data

Results flagged for a closer look

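No member probe set had 1 array far enough from the others to be singled out (gap to the nearest value over the whole range above the 95% critical value of Dixon's test). Of the 75 member and named probe sets screened, 4 did. These were Calb1 (0.831, high at 2 h), Ncam1 (0.857, high at 2 h), Gja1 100064_f_at (0.864, low at 4 h) and Arfgef1 (0.831, low at 4 h). A rate of 5 in 100 would give about 3.75 for independent probe sets. These share the same arrays, and some were chosen for their course, so that number is a rough guide. Gbx2 (0.947) and Rora 101888_at (1), with values raised to the floor, are not among the 4. Gja1 and Arfgef1 are the courses nearest to that of Prkce 103223_at.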

How the results depend on the processing

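With all 4 samples, 0 of 12 members (13 without the filter, 8 with 1 probe set per gene) and 0 of all probe sets had a called trend under every alternative tried, the smallest adjusted p over all running from 0.0949 with the filter at the 60th percentile to 1 without a filter. Leaving out 1 sample, the count over all ran from 0 to 18 (18 without the 1 h sample, 3 without 2 h, 0 without 4 h and 2 without 6 h), each from 1 residual degree of freedom, and 0 members were called. Leaving out the 1, 2, 4 or 6 h sample, 1, 2, 3 and 3 members spanned over 2-fold. The shares of all tested were then 15.7%, 15.5%, 11.5% and 15.9%. The count was 3 under both scalings and both floors (21.5% to 22.4% of all tested). It was 4 of 13 without a filter (34.1%) and 9 at a fold of 1.5 (52.9%). Slopes kept their sign with all 4 samples. Leaving out 1 sample, slopes changed sign for Prkca (−0.058 to 0.096), Prkcb 99511_at (−0.24 to 0.039), Prkce 94161_at (−0.28 to 0.075), Nrgn (−0.48 to 0.27), Marcks (−0.24 to 0.0033), Prkcd 160698_s_at (−0.18 to 0.14), Prkcz 96198_at (−0.015 to 0.036) and Gap43 (−0.14 to 0.20). Array median scaling widened the span of Prkcb 99510_at to 1.23-fold and of Prkcz 96198_at to 1.22-fold, and a floor at the 30th percentile lowered the bound for Prkcz 96571_at to at least 4.01-fold. That bound is the 6 h reading over the floor, so it falls as the floor rises. Median scaling lowers the 4 h array, which had the highest median (212.75), and the 2 widened probe sets were then lowest at 4 h. What made slopes change sign was not tested. The pathway lists' median span was 1.55-fold to 1.63-fold with all samples and 1.40-fold to 1.44-fold without 1, and the difference of Nrgn from Gap43 ran from 0.27 to 0.44; these alternatives were added after seeing the data. No paired analysis was possible because there is 1 group with 1 array per hour.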
